A study of Mus musculus with 18 samples.

Results

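The enzymes of glycolysis and of the pentose phosphate pathway were followed as 32 named genes among the 54279 rows of each of 2 RNA sequencing tables. The genes were chosen by name, for the reaction their product carries out, with earlier results of these data known. The cells were mouse oligodendrocyte progenitor cells (OPCs), which mature into the cells that make myelin in the brain and spinal cord, derived from epiblast stem cells and kept with the growth factors Fgf2 and Pdgfa. They were labelled CRISPR-Vhl, for CRISPR targeting of Vhl, or CRISPR-Control, with the control guide not described in the labels. In the first experiment control and Vhl cells were left untreated. In the second both kinds of cell were grown for a day and then given new medium with DMSO, the solvent, or with 300 nM AZD8330, which inhibits MEK1 and MEK2, for 14 hours. Each of the 6 groups holds 3 libraries, lettered A, B and C, 18 in all. The sources used here do not say whether the Vhl cells were a clone or a pool, which part of Vhl was edited, or whether the libraries come from separate cultures. P-values therefore measure only the spread between these libraries, which may be technical.

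As background, glycolysis splits glucose into pyruvate and yields ATP and NADH in the cytosol. The pentose phosphate pathway branches off at glucose phosphate. Its oxidative arm makes NADPH and its non-oxidative arm trades sugars of different lengths back into glycolysis or toward nucleotides. The VHL protein marks hypoxia-inducible factor (HIF) for destruction when oxygen is present, and HIF is known to switch on many glycolysis genes. MEK carries the signal of growth factors such as Fgf2 and Pdgfa inside the cell. Messenger RNA does not show how much sugar passes through an enzyme.

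The deposited values are estimated counts, with 12391077 to 21160250 per library, and are given here as CPM, counts per 1000000 of the library's scaled total. A row may hold only part of a gene's reads. Of 75 rows of cytosolic ribosomal protein genes, which every cell uses, 12 were under 20 CPM in control cells with DMSO, and they ran from 4.29 CPM for Rps15 to 1877 CPM for Rpl8. Actb, the actin gene, was at 13.9 to 27.9 CPM in the drug experiment. CPM is not divided by gene length either, so levels are compared between groups for 1 gene and never between genes. Vhl mRNA of every Vhl library lay below that of all controls with the same treatment, at 74.1 to 104.7 CPM against 102.3 to 139.8 CPM over all treatments. All 8 OPC markers reached 1 CPM on average in all 6 groups, and the 5 microglia markers together stayed under 2 CPM in every library. All 6 astrocyte markers and 5 or 6 of the 7 neuron markers also reached 1 CPM in every group. This level therefore does not tell OPCs from those cell types. Sox10, an OPC marker, ran from 15.3 to 327 CPM in the untreated Vhl libraries and from 87.8 to 527 CPM in the untreated control libraries. In untreated Vhl cells library A stood apart for the enzyme genes, as described with that comparison.

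Members made up 0.641 to 0.658% of all counts in control cells with DMSO and 1.72 to 1.77% in Vhl cells with DMSO. With AZD8330 the share was 0.562 to 0.571% in control and 1.92 to 1.99% in Vhl cells. In untreated cells it was 0.344 to 0.364% in control and 0.718, 1.56 and 1.83% in the Vhl libraries A to C. Gapdh held the largest part of these counts. The Vhl groups were above the control groups in every treatment, with no overlap of libraries.

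The comparison of Vhl with control cells in DMSO asked which of these genes differ when Vhl is edited. Of 32 members 30 passed the filter of a mean of 1 CPM over the 12 libraries, Hk2 and Eno2 being too low. By edgeR's quasi-likelihood test with Benjamini-Hochberg adjustment over all genes, at a threshold of 0.05, 13 of the 30 rose and 6 fell in Vhl cells, and 11 were not called. The number that fell was 2 without Vhl library C and 3 without control library A. Over all 13460 tested genes, 13.8% rose and 18.5% fell. The 13 that rose were Hk1, Gpi1, Pfkl, Pfkfb3, Aldoa, Tpi1, Gapdh, Pgk1, Pgam1, Eno1, Pkm, Galk1 and Pgd. The 6 that fell were Tigar, Adpgk, Minpp1, Rpe, Taldo1 and Prps1, all by less than 0.5 on the log2 scale. Hk1 and Pgk1 were under 1 CPM on average in control cells with DMSO and passed the filter only through groups where they were higher, so their rises support nothing here, and 11 of the 13 are left without them. The median log2 change of the tested members was 0.21, against −0.03 for all genes. When libraries were scaled by their total counts, 13 members rose and 2 fell, and the split over all genes went from 1851 rises and 2492 falls to 2347 and 1788.

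**Figure D1:**
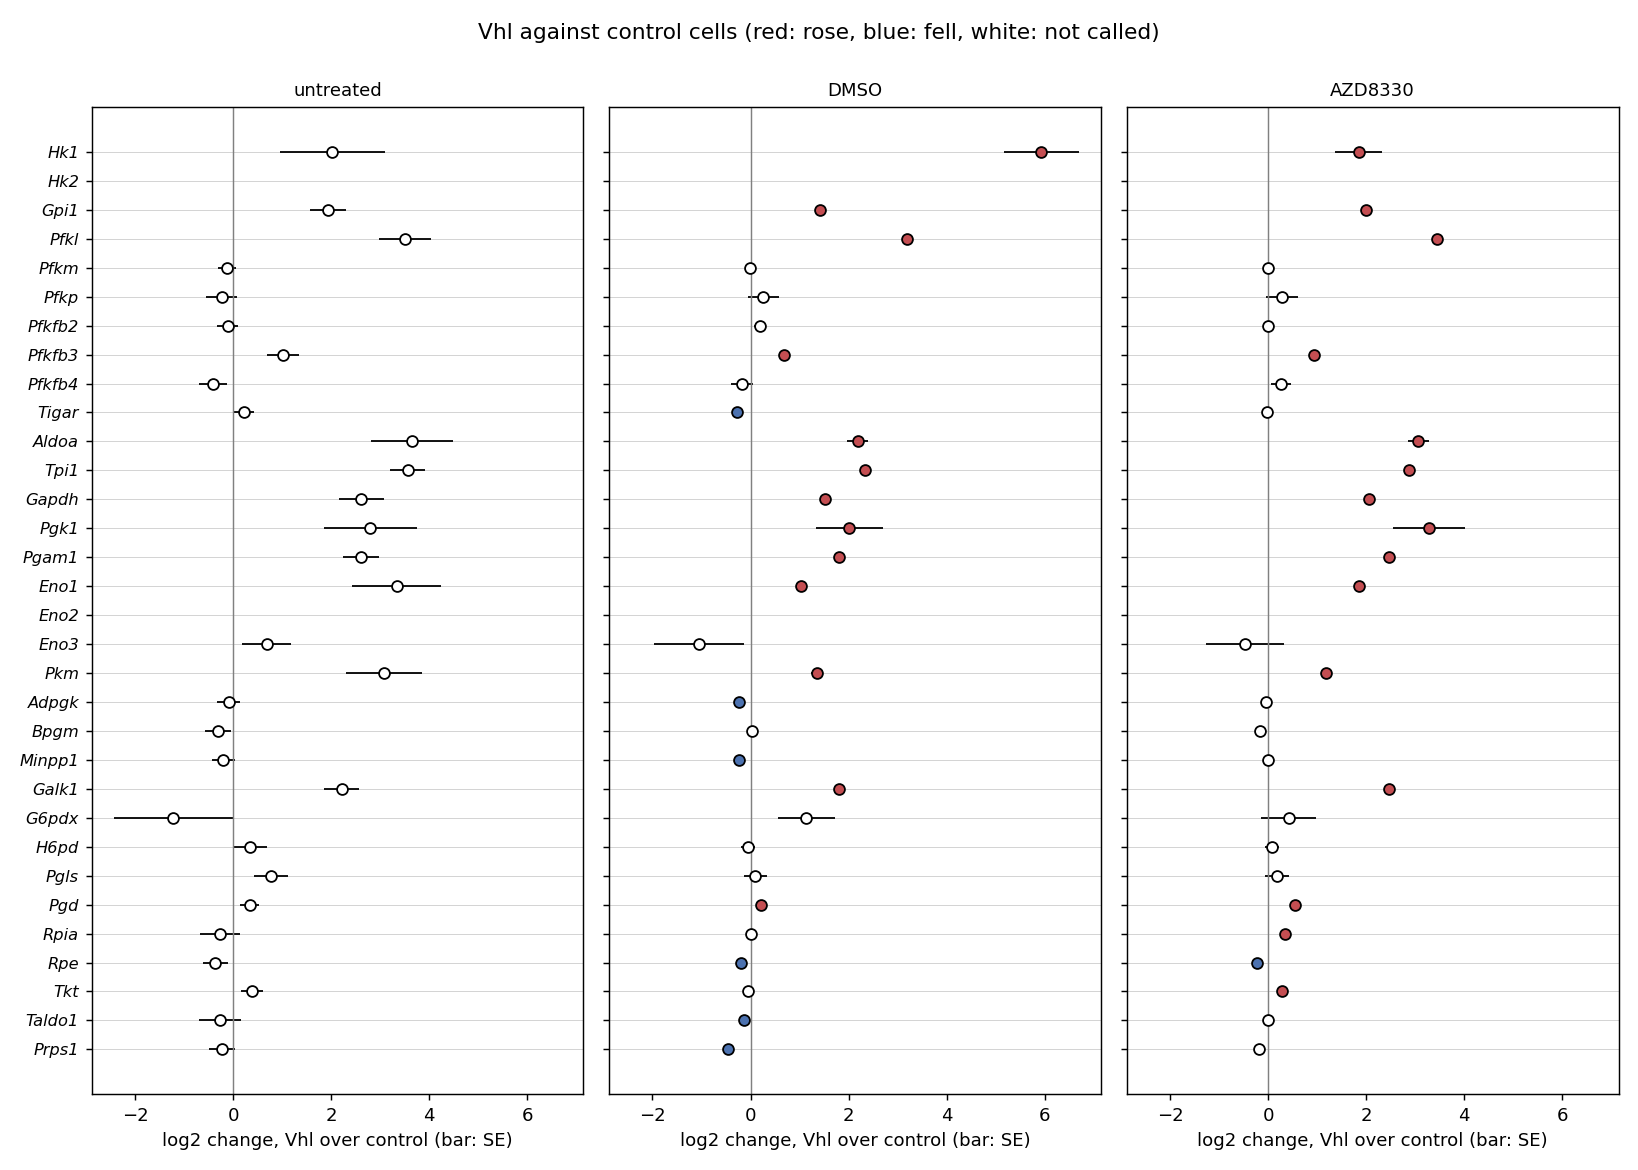
Log2 change of Vhl over control cells (x axis) for each tested member (y axis) in untreated, DMSO and AZD8330 cells; points are edgeR estimates, bars are standard errors, and red, blue and white points rose, fell or were not called. Hk2 is not drawn, since its control libraries are listed at 0 in untreated cells. The glycolysis genes from Gpi1 to Pkm sit mostly to the right of 0, and the bars are wider in untreated cells.

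The first steps of glycolysis trap glucose and turn it toward splitting. Gpi1 (chromosome 7, 34201330 to 34230336, minus strand, GRCm38, GENCODE M21) encodes glucose phosphate isomerase. It was at 807, 807 and 824 CPM in the control libraries with DMSO and at 2155, 2184 and 2172 CPM in the Vhl libraries. All 3 Vhl libraries were above all controls, a log2 rise of 1.42 ± 0.03 (SE; adjusted p = 3.44e-13). Hk1 (chromosome 10, 62268855 to 62379908, minus strand) encodes a hexokinase that phosphorylates glucose. Its row held 8, 1 and 10 counts (0.509, 0.067 and 0.716 CPM) in controls and 195, 305 and 570 counts (15.6, 20.8 and 43.1 CPM) in Vhl cells. The control values are close to 0 and the Vhl values spread widely, and the log2 rise of 5.93 ± 0.76 (adjusted p = 6.77e-05) describes only the reads this row holds. Hk2, the hexokinase gene best known as a HIF target, was listed at 0 in all 3 Vhl libraries and in 2 of 3 control libraries with DMSO, and no change can be read from it.

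Phosphofructokinase makes the committed step of glycolysis from liver-type, muscle-type and platelet-type subunits. Pfkl, the liver-type gene (chromosome 10, 77986947 to 78010083, minus strand), was at 105, 102 and 107 CPM in controls and at 960.1, 961 and 954 CPM in Vhl cells, a log2 rise of 3.19 ± 0.05 (adjusted p = 1.84e-13). Its 2 groups lay far apart and each was tight. Pfkm, the muscle-type gene, was at 372, 376 and 374 CPM in controls and at 374, 373 and 372 CPM in Vhl cells, and the groups overlapped (log2 −0.00 ± 0.03, adjusted p = 0.968). Pfkp, the platelet-type gene, was at 3.83 to 6.63 CPM in these 6 libraries and was not called. Of the 3 subunit genes Pfkl was thus the one called, and the difference between their changes was not itself tested.

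Pfkfb enzymes make and break the fructose bisphosphate that activates phosphofructokinase, and Tigar breaks it. Pfkfb3, whose product mostly makes it, was at 41.6, 35.6 and 33.0 CPM in controls and at 60.5, 54.1 and 62.0 CPM in Vhl cells. Every Vhl library was above every control, a log2 rise of 0.68 ± 0.09 (adjusted p = 9.2e-05). Tigar was at 37.1, 37.5 and 34.3 CPM in controls and at 30.6, 30.8 and 28.7 CPM in Vhl cells, a log2 change of −0.27 ± 0.07 (adjusted p = 0.0136). That fall was not called without control library B or without Vhl library C (adjusted p = 0.0528 to 0.0533). Pfkfb2 and Pfkfb4 were not called.

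The lower part of the pathway, from aldolase to pyruvate kinase, held 9 members. Of these 7 rose, where 13.8% of all genes rose, Eno3 was not called and Eno2 was too low to test. The 7 include Pgk1, whose rise supports nothing here. Tpi1 (chromosome 6, 124810586 to 124814296, minus strand), which interconverts the triose phosphates, was at 374, 372 and 385 CPM in controls and at 1865, 1919 and 1885 CPM in Vhl cells. Its log2 rise of 2.33 ± 0.04 had the smallest p of all members (adjusted p = 1.84e-13). Pgam1, which shifts the phosphate on glycerate, was at 733, 702 and 691 CPM in controls and at 2426, 2539 and 2468 CPM in Vhl cells (log2 1.80 ± 0.03). Gapdh, the NADH-making step, was at 2535, 2470 and 2536 CPM in controls and at 6929, 7255 and 7354 CPM in Vhl cells (log2 1.51 ± 0.03). For all 3 genes every Vhl library was above every control, and Gapdh, often used as a reference gene, differed 2.86-fold between these groups. Aldoa, which splits the sugar, had a log2 rise of 2.18 ± 0.21, and Pkm, pyruvate kinase, one of 1.35 ± 0.10. 2 gene records of GENCODE M21 share the name Aldoa, and the sources used here do not say which of them the row holds.

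Rows of lower glycolysis share sequence with near-identical genes and pseudogenes, and Salmon can split reads between them. Eno1 (chromosome 4, 150236721 to 150248879, plus strand), the widely expressed enolase gene, has 27.7% of its 31-base words in Eno1b. The Eno1 row was at 32.2, 38.3 and 36.8 CPM in controls and at 73.3, 79.6 and 66.9 CPM in Vhl cells, a log2 rise of 1.04 ± 0.11 (adjusted p = 1.71e-05). With the Eno1b and Gm4735 rows added, the sum was 1648, 1620 and 1654 CPM in controls and at 2920, 2906 and 3023 CPM in Vhl cells, a log2 rise of 0.85 (adjusted p = 1.6e-09). Most of that sum was listed under Eno1b, and both readings gave a rise. Pgk1, the first ATP-making step, has 54.7% of its words in Pgk1-rs7 and was at only 0.143 to 0.7 CPM in controls and at 0.615 to 3.48 CPM in Vhl cells. Its groups overlapped. The log2 rise of 2.01 ± 0.69 (adjusted p = 0.0406) was not called in 5 of the 6 fits without a library of these 2 groups, and was 2.98 (adjusted p = 0.000899) with near-identical rows summed.

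Promoter sequences are shown for 4 members, since HIF is known to bind a short core motif and members rose together in Vhl cells. RefSeq starts (GRCm38.p6) were found for all 32 members, at 45 start sites, and the 250 bases before each start were searched for ACGTG and GCGTG on both strands, where CACGTG counts on both. Pgam1 and Galk1 rose and hold the motif, Gpi1 rose without it, and Pfkm holds it and was not called. Each window reads 5′ to 3′ on the gene's strand, with matches on either strand in capitals.
Pgam1, chr19:41911621-41911870, plus strand: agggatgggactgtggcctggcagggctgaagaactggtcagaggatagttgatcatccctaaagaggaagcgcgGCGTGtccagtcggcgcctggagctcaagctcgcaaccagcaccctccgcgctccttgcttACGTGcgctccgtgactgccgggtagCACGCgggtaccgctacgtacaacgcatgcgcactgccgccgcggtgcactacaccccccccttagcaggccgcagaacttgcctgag
Galk1, chr11:116012720-116012969, minus strand: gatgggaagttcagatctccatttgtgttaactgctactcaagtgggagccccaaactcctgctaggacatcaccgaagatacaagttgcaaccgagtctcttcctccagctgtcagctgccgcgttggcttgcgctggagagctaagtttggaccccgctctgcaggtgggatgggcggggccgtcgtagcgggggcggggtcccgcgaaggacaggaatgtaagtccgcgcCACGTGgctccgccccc
Gpi1, chr7:34230337-34230586, minus strand: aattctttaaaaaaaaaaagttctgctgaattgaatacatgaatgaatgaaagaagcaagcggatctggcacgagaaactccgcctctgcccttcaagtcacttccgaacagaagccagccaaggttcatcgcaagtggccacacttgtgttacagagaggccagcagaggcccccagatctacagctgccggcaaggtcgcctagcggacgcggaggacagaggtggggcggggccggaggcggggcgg
Pfkm, first start, chr15:98092339-98092588, plus strand: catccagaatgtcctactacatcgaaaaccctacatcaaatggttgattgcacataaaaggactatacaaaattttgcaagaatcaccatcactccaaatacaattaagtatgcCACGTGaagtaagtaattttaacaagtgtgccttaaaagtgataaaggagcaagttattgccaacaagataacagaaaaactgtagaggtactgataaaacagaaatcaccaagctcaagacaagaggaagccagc
Pgam1 has 3 matches, 175, 114 and 88 bases before its start. The match in Galk1 is a CACGTG close to the start and that in Pfkm a CACGTG farther up. Of the 21 windows of the 13 genes that rose, 71.4% held ACGTG or GCGTG, against 66.7% of the 6 windows of genes that fell and 81.2% of the 16 windows of genes not called. In all 32851 windows of that length the share was 38.6%. Windows of 1 gene can overlap and hold the same match. Counted by gene, the shares were 84.6% of those that rose, 66.7% of those that fell and 81.8% of those not called. Over all 27025 genes the share was 41.5%. These shares are descriptions and were not tested. A match is a run of letters, not a shown binding site, and a window without one says nothing of sites elsewhere.

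4 members act beside the main line of glycolysis. Galk1 (chromosome 11, 116008457 to 116012719, minus strand), which phosphorylates galactose, was at 50.9, 52.7 and 52.7 CPM in controls and at 179.6, 180.0 and 187 CPM in Vhl cells. The log2 rise was 1.81 ± 0.05 (adjusted p = 4.3e-11), and none of its 31-base words occurs in another gene. Adpgk, which phosphorylates glucose with ADP, was at 84.1, 76.0 and 80.1 CPM in controls and at 75.3, 65.6 and 61.9 CPM in Vhl cells (log2 −0.25 ± 0.07, adjusted p = 0.0146). Minpp1, a phosphatase that also acts on bisphosphoglycerate, was at 59.5, 51.5 and 54.6 CPM and at 48.3, 47.4 and 45.3 CPM (log2 −0.23 ± 0.07, adjusted p = 0.025). Both falls were small, and neither was called when libraries were scaled by total counts (adjusted p = 0.0536 to 0.112 over the settings that end these calls). Bpgm, which makes bisphosphoglycerate, was not called.

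In the pentose phosphate pathway 1 of 9 members rose and 3 fell with Vhl edited in DMSO. Over all genes 13.8% rose and 18.5% fell, and no change of the pathway as a set is read from these counts. Of the 4 members of the oxidative arm only Pgd was called. Pgd, phosphogluconate dehydrogenase, was at 214, 199 and 204 CPM in controls and at 239, 246 and 234 CPM in Vhl cells, a log2 rise of 0.22 ± 0.04 (adjusted p = 0.000498). G6pdx, which opens the pathway, was at 1.02, 1.21 and 1.65 CPM in controls and at 1.68, 0.888 and 5.98 CPM in Vhl cells (log2 1.14 ± 0.59, adjusted p = 0.166). These groups overlapped, and the Vhl libraries spread widely. H6pd, its counterpart in the endoplasmic reticulum, and Pgls, the lactonase, were not called.

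In the non-oxidative arm and the step to nucleotides, 3 of 5 members fell and none rose, where 18.5% of all genes fell. Prps1 (chromosome X, 140456613 to 140476140, plus strand), which makes the phosphoribosyl donor for nucleotides, was at 84.6, 88.8 and 85.5 CPM in controls and at 65.9, 64.0 and 57.9 CPM in Vhl cells. All Vhl libraries were below all controls, a log2 change of −0.46 ± 0.06 (adjusted p = 0.00011). Taldo1, transaldolase, had a log2 change of −0.14 ± 0.03 (adjusted p = 0.00392) and Rpe, the epimerase, one of −0.19 ± 0.07 (adjusted p = 0.0453). Neither was called with total-count scaling (adjusted p = 0.0726 for Taldo1), and Rpe was lost in 4 of the 6 fits without a library of these groups. Tkt, transketolase, at 575 to 618 CPM in both groups, and Rpia, the ribose phosphate isomerase, were not called.

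**Figure D2:**
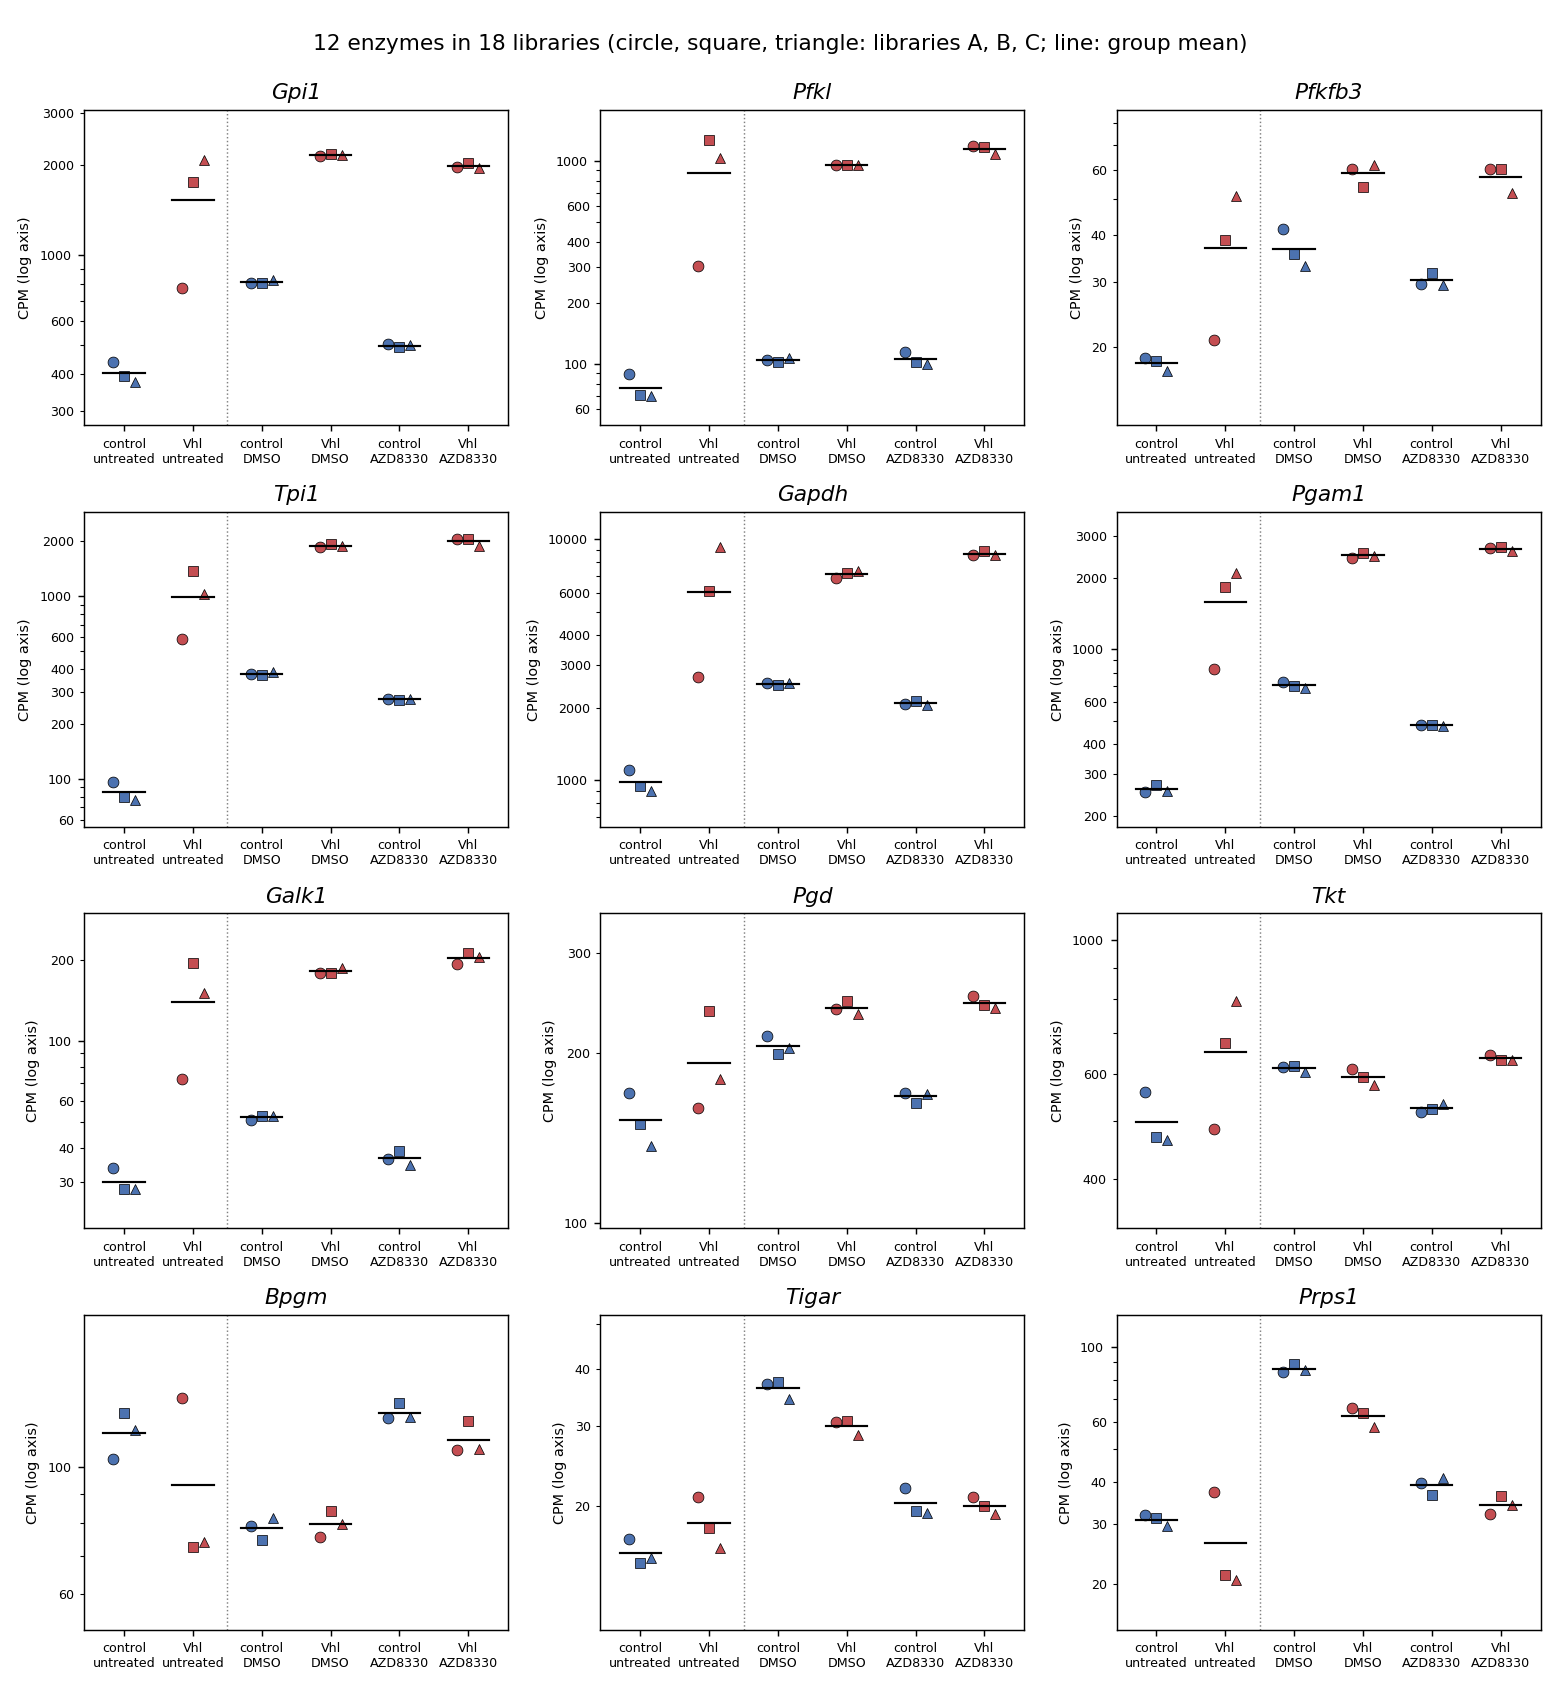
CPM on a log axis (y axis) of 12 members in the 6 groups (x axis); circles, squares and triangles are libraries A, B and C, lines are group means, and the dotted line separates the 2 experiments, which were normalized apart. Gpi1, Pfkl, Tpi1, Gapdh, Pgam1 and Galk1 are higher in every Vhl library than in every control of the same experiment and treatment, and Prps1 and Tigar are lowest with AZD8330 within the drug experiment.

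The comparison in AZD8330 asked whether the Vhl difference is also seen with MEK inhibited. Of 30 tested members 15 rose and 1 fell in Vhl cells, where 16.0% of all genes rose and 14.0% fell. The 13 genes that rose in DMSO rose here too, together with Rpia and Tkt, and Rpe was the member that fell. Pgk1 was at 0.276 CPM on average in control and 2.7 CPM in Vhl cells with AZD8330. It passed the filter only through the Vhl groups, so its rise supports nothing here either. The number that fell was 0 without control library A, 2 without control library B or C and 3 without Vhl library B. With the RLE scaling of edgeR 15 rose and 3 fell, and the split over all genes moved from 2149 rises and 1884 falls to 1796 and 2318. The median log2 change of tested members was 0.31, against 0.01 for all genes. Beside this, the summed neuron markers were higher in Vhl than in control cells in both treatments. With AZD8330 the summed astrocyte and oligodendrocyte markers were lower in Vhl cells, while with DMSO these 2 sums overlapped between the groups. Single markers did not all follow their sum. With AZD8330 the group mean of Gja1 was lower in Vhl cells (418 against 903 CPM), as were those of Gfap, Aqp4 and Slc1a3. The mean of Slc1a2 was higher there (717 against 553 CPM), and so was that of Aldh1l1. Among the neuron markers Map2, Dcx, Tubb3 and Stmn2 were higher by mean, and Rbfox3, Snap25 and Syt1 were lower. No shift of a cell type is read from these sums. The sums are given with the AZD8330 effect, and their part was not tested.

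Pfkl was at 115, 103 and 101 CPM in controls with AZD8330 and at 1186, 1176 and 1087 CPM in Vhl cells, a log2 rise of 3.44 ± 0.05. Tpi1 was at 272, 270 and 274 CPM and at 2052, 2069 and 1879 CPM (log2 2.88 ± 0.04). Galk1 was at 36.6, 39.0 and 34.7 CPM and at 193, 214 and 206 CPM (log2 2.47 ± 0.05). In each of these genes every Vhl library was far above the highest control. Pfkfb3 was at 29.5, 31.7 and 29.4 CPM in controls and at 60.3, 60.3 and 52.1 CPM in Vhl cells (log2 0.93 ± 0.09). G6pdx, at 3.18, 1.57 and 1.51 CPM in controls and at 2.56, 2.36 and 3.50 CPM in Vhl cells, was not called. Hk1 held 64, 216 and 314 counts (4.07, 14.1 and 22.6 CPM) in controls and 597, 828 and 685 counts (41.3, 54.3 and 49.99 CPM) in Vhl cells, a log2 rise of 1.85 ± 0.48 (adjusted p = 0.0103). Tkt was at 518, 525 and 534 CPM in controls and at 645, 633 and 631 CPM in Vhl cells (log2 0.28 ± 0.03, adjusted p = 9.2e-06). Rpia, at 10.7, 11.4 and 11.7 CPM in controls and at 13.9, 14.8 and 14.2 CPM in Vhl cells, was not called in any of the 6 fits without a library of these groups (adjusted p = 0.052 to 0.138 over the settings that end this call). Rpe was at 82.8, 78.9 and 82.0 CPM in controls and at 73.2, 70.2 and 63.5 CPM in Vhl cells, and was not called without control library A (adjusted p = 0.0567).

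The effect of AZD8330 in control cells was read as AZD8330 over DMSO. In control cells 16 of 30 members fell and 5 rose, where 31.7% of all genes fell and 29.1% rose. The genes that rose were Hk1, Pfkm, Pfkfb2, Bpgm and Taldo1. Hk1 was under 1 CPM on average in control cells with DMSO and passed the filter only through higher groups, so its rise supports nothing. The members that fell included Gpi1, Tpi1, Gapdh, Pgam1 and Eno1 of glycolysis, Pgd and Tkt of the pentose phosphate pathway, and Prps1. The median log2 change of tested members was −0.29, against −0.01 for all genes. Markers of other cell types moved with this treatment. The summed level of 6 astrocyte markers, of which all 6 reached 1 CPM, was 682 to 745 CPM with DMSO and 1643 to 1725 CPM with AZD8330 in control cells. For 7 neuron markers it was 994 to 1047 CPM and 2095 to 2104 CPM, most of it Map2. For 5 oligodendrocyte markers it was 13.2 to 14.5 CPM and 54.6 to 60.2 CPM. In Vhl cells the same sums went from 742 to 784, 1431 to 1566 and 8.3 to 13.5 CPM with DMSO to 1276 to 1307, 2442 to 2474 and 23.8 to 27.7 CPM. Their part in the results was not tested. In such bulk samples fewer cells of a type and less RNA per cell cannot be told apart.

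Prps1 had the largest fall of any member with AZD8330 in control cells, to 39.7, 36.5 and 41.0 CPM from the DMSO values above (log2 −1.14 ± 0.06, adjusted p = 6.05e-09). In Vhl cells it fell to 32.2, 36.3 and 34.2 CPM (log2 −0.87 ± 0.07). Tigar fell to 22.0, 19.6 and 19.3 CPM in control cells (log2 −0.84 ± 0.08) and to 20.95, 20.1 and 19.2 CPM in Vhl cells (log2 −0.58 ± 0.08). All AZD8330 libraries were below all DMSO libraries for both genes in both kinds of cell. Adpgk fell to 48.7, 49.9 and 46.6 CPM in control cells and to 47.9, 45.8 and 48.2 CPM in Vhl cells (log2 −0.73 ± 0.07 and −0.51 ± 0.07). Minpp1 fell to 34.3, 37.0 and 32.8 CPM in control cells and to 37.3, 33.0 and 33.6 CPM in Vhl cells (log2 −0.67 ± 0.07 and −0.44 ± 0.07). All 4 genes were lower in Vhl than in control cells with DMSO and were not called in AZD8330, although Prps1 was with RLE scaling, and the difference of AZD8330 effects was not called for any of them.

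Other members also fell in control cells without a called difference between the 2 kinds of cell. Rpia fell from 19.6, 19.8 and 17.4 CPM to 10.7, 11.4 and 11.7 CPM in control cells (log2 −0.75 ± 0.10), and from 17.2, 19.7 and 20.3 CPM to 13.9, 14.8 and 14.2 CPM in Vhl cells (log2 −0.42 ± 0.10). H6pd fell from 10.6, 10.1 and 10.7 CPM to 8.004, 6.41 and 6.69 CPM in control cells (log2 −0.57 ± 0.14) and from 9.58, 11.1 and 9.61 CPM to 8.09, 7.41 and 6.86 CPM in Vhl cells (log2 −0.44 ± 0.14). Pgls was at 7.95, 6.10 and 6.37 CPM with DMSO and at 3.43, 4.90 and 5.18 CPM with AZD8330 in control cells (log2 −0.60 ± 0.24, adjusted p = 0.048). That call was lost under every other scaling and without any library of these groups (adjusted p = 0.0507 to 0.174 over the settings that end it).

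The members that rose with AZD8330 belong to several steps. Bpgm rose from 78.8, 74.5 and 81.4 CPM to 122, 130 and 122 CPM in control cells (log2 0.67 ± 0.06) and from 75.4, 84.0 and 79.4 CPM to 107, 121 and 108 CPM in Vhl cells (log2 0.49 ± 0.06). Pfkfb2, a gene of the bifunctional enzyme best known in heart, rose from 22.5, 26.0 and 22.2 CPM to 44.4, 38.7 and 40.5 CPM in control cells (log2 0.80 ± 0.11). In Vhl cells Pfkfb2 went from 30.1, 21.5 and 29.7 CPM to 39.8, 41.2 and 42.6 CPM (log2 0.61 ± 0.11). For both genes the AZD8330 and DMSO libraries did not overlap. Pfkm rose by nearly the same amount in control and Vhl cells, with log2 changes of 0.43 ± 0.03 in each. Taldo1 rose in both as well (log2 0.28 ± 0.03 and 0.41 ± 0.03).

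In Vhl cells AZD8330 raised 12 members and lowered 7, where 25.8% of all genes rose and 25.6% fell. Pfkfb4 rose from 5.03, 6.28 and 8.55 CPM to 12.2, 9.64 and 13.1 CPM (log2 0.81 ± 0.21, adjusted p = 0.00611). In control cells Pfkfb4 was at 6.11 to 8.30 CPM with DMSO and 8.12 to 10.99 CPM with AZD8330 and was not called (adjusted p = 0.148). Eno3, the muscle enolase gene, went from 0, 3.07 and 0.151 CPM to 7.61, 4.46 and 5.84 CPM (log2 2.41 ± 0.90, adjusted p = 0.04), a call lost in 5 of the 6 fits without a library of these groups. The Eno3 values in control cells, 3.37, 3.02 and 0.501 CPM with DMSO and 7.05, 11.1 and 6.62 CPM with AZD8330, did not pass (adjusted p = 0.076). The difference of AZD8330 effects was not called for Pfkfb4 or Eno3. Pfkl rose from 960.1, 961 and 954 CPM to 1186, 1176 and 1087 CPM (log2 0.26 ± 0.04). The median log2 change of tested members was 0.09, against 0.03 for all genes.

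The last comparison tested whether AZD8330 acted differently on these genes in the 2 kinds of cell, as the AZD8330 change in Vhl cells minus that in control cells. It was positive for 9 of 30 members and negative for 1, where 7.81% of all genes were called positive and 4.96% negative. The 9 were Gpi1, Pfkl, Tpi1, Gapdh, Pgam1, Eno1, Galk1, Pgd and Tkt. The negative member was Hk1, whose near-0 counts in control cells with DMSO leave its call without support. The comparison of the 2 effects was built in a simple way. By construction the difference of AZD8330 effects equals the Vhl change in AZD8330 minus that in DMSO. Scaling moved the split over all genes from 1051 positive and 667 negative to 681 and 873 with total counts, and the members went to 8 and 1.

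Gpi1 fell with AZD8330 from 807, 807 and 824 CPM to 502, 489.9 and 499 CPM in control cells (log2 −0.71 ± 0.03) and from 2155, 2184 and 2172 CPM to 1977, 2043 and 1957 CPM in Vhl cells (log2 −0.12 ± 0.02). The difference was 0.59 ± 0.04 on the log2 scale (adjusted p = 1.45e-06), the smallest p among the members. Pgam1 fell from 733, 702 and 691 CPM to 481, 484 and 476 CPM in control cells (log2 −0.56 ± 0.03) and was at 2676, 2698 and 2576 CPM in Vhl cells with AZD8330 (log2 0.10 ± 0.03). Its difference was 0.66 ± 0.04 (adjusted p = 1.9e-06). The rise of Pgam1 in Vhl cells was small and was lost without Vhl DMSO library A or Vhl AZD8330 library A or B. The ratio of AZD8330 to DMSO was thus 0.611 for Gpi1 and 0.677 for Pgam1 in control cells, and 0.918 and 1.07 in Vhl cells.

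Gapdh fell in control cells to 2064, 2135 and 2045 CPM (log2 −0.27 ± 0.03) and rose in Vhl cells to 8630, 8917 and 8578 CPM (log2 0.28 ± 0.03), so that the 2 effects had opposite signs and differed by 0.55 ± 0.04 (adjusted p = 4.37e-06). Galk1 likewise fell in control cells (log2 −0.50 ± 0.05) and rose in Vhl cells (log2 0.17 ± 0.05), with a difference of 0.67 ± 0.07 (adjusted p = 7.34e-05). The rise of Galk1 was lost without Vhl AZD8330 library B or C. Tpi1 fell in control cells (log2 −0.47 ± 0.04), was not called in Vhl cells (log2 0.08 ± 0.03) and had a difference of 0.55 ± 0.05 (adjusted p = 2.1e-05). Tkt went from 616, 618 and 605 CPM to 518, 525 and 534 CPM in control cells and from 611, 592 and 575 CPM to 645, 633 and 631 CPM in Vhl cells (difference 0.32 ± 0.04, adjusted p = 0.000253). Pgd went from the DMSO values above to 169.9, 163 and 169 CPM in control cells and to 252, 243 and 239.6 CPM in Vhl cells (difference 0.33 ± 0.05, adjusted p = 0.00141). For these 5 genes the control libraries with AZD8330 lay below those with DMSO without overlap.

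Eno1 fell in control cells from the DMSO values above to 21.5, 16.1 and 23.4 CPM (log2 −0.82 ± 0.12) and was at 75.1, 69.4 and 77.1 CPM in Vhl cells, a difference of 0.83 ± 0.16 (adjusted p = 0.00526). With Eno1b and Gm4735 added the difference was 0.56 (adjusted p = 9.89e-06), and the AZD8330 effect in Vhl cells, 0.01 for the Eno1 row alone, became a called fall of −0.13. Hk1 went the other way. It rose with AZD8330 in control cells from 8, 1 and 10 counts to 64, 216 and 314 counts (log2 4.96 ± 0.79) and was not called in Vhl cells (log2 0.87 ± 0.46), a difference of −4.08 ± 0.97 (adjusted p = 0.0155). Hk1 was under 1 CPM on average in control cells with DMSO and passed the filter only through higher groups. Its rise with AZD8330 and this difference therefore support nothing here. Without control DMSO library B, which held 1 count, the difference of Hk1 was −3.58 (adjusted p = 0.052), and with limma on log2(CPM + 1) it was −2.15 and not called. For Pfkl the difference was 0.24 ± 0.07 (adjusted p = 0.0327), but this call was lost with RLE or total-count scaling and in 10 of the 12 fits without a library.

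**Figure D3:**
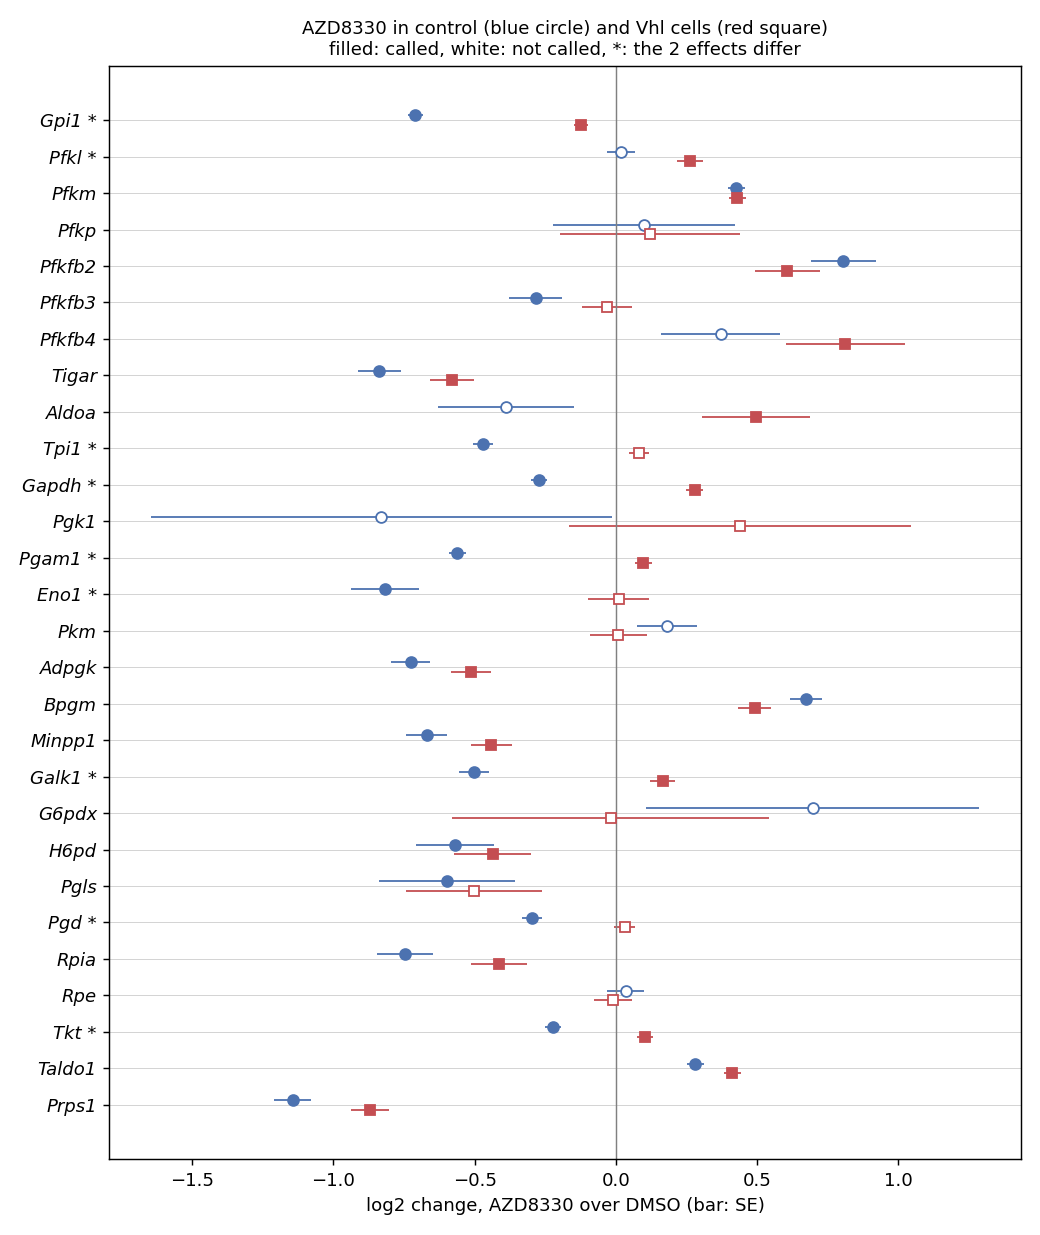
Log2 change with AZD8330 over DMSO (x axis) for tested members (y axis) in control cells (blue circles) and Vhl cells (red squares); bars are standard errors, filled points were called, white points were not, and a star marks members whose 2 effects differed by test. Hk1 and Eno3 are left out because their estimates would stretch the axis. Red squares of Gpi1, Tpi1, Gapdh, Pgam1, Eno1 and Galk1 lie to the right of their blue circles, while both symbols of Prps1, Tigar, Adpgk and Minpp1 lie to the left of 0.

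The untreated experiment made the same Vhl comparison in other libraries, with no drug or solvent. Its table was normalized apart from the drug table, so its levels are not compared with those above. Of 32 members 31 were tested, and 0 were called by edgeR, where 0.0147% of all genes (2 of 13569) were called. At an unadjusted p under 0.05 there were 12 members and 1267 genes, and DESeq2 called 9 members, all higher, and 355 genes. The median log2 change of tested members was 0.38, against 0.05 for all genes. Hk2 was among the 31 tested members, though it was listed at 0 in every control library. It passed the filter only through Vhl libraries, so its change supports nothing here. The spread between libraries was wider here, with a common dispersion of 0.144 against 0.0161 in the drug experiment.

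Of the 13 members that rose in DMSO, 11 had all 3 untreated Vhl libraries above all 3 controls, a pattern that 7.92% of all tested genes showed. The exceptions were Hk1 and Pgd. Pgk1 was among the 11, and like Hk1 it is a gene whose rise in DMSO supports nothing here. None of the 6 members that fell in DMSO showed it. Tpi1 was at 96.3, 80.0 and 76.7 CPM in the control libraries and at 584, 1376 and 1023 CPM in Vhl libraries (log2 3.56 ± 0.35, adjusted p = 0.07). Pfkl was at 88.9, 70.8 and 70.0 CPM and at 305, 1272 and 1034 CPM (log2 3.51 ± 0.52, adjusted p = 0.0945). Pgam1 was at 253, 269 and 255 CPM and at 827, 1832 and 2084 CPM (log2 2.61 ± 0.36, adjusted p = 0.0945). In these 3 genes library A was the lowest of the Vhl libraries and still above every control. Galk1 was at 33.6, 28.2 and 28.2 CPM and at 72.2, 195 and 151 CPM (log2 2.22 ± 0.36, adjusted p = 0.125).

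Library A was below B and C for all 13 of these genes, with Hk1 and Pgk1 included. The median ratio to the control mean over the 13 was 2.28 in Vhl A, 7.07 in Vhl B and 8.71 in Vhl C. Leaving out Vhl A gave 10 called members, all higher, and 439 called genes. Leaving out both A libraries gave 9, of which 8 were higher and Bpgm was lower, and 606 genes. For the 6 members that fell in DMSO the median ratios were 1.21, 0.796 and 0.686, and Tigar, at 1.33, 1.13 and 1.03, was above the control mean in all 3 libraries. Outside this pathway Actb also differed between all 3 Vhl libraries and was highest in C. Actb was at 40.7, 187 and 742 CPM in Vhl libraries A to C against 71.8 to 102.7 CPM in controls, and the part of this in the result was not tested.

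**Figure D4:**
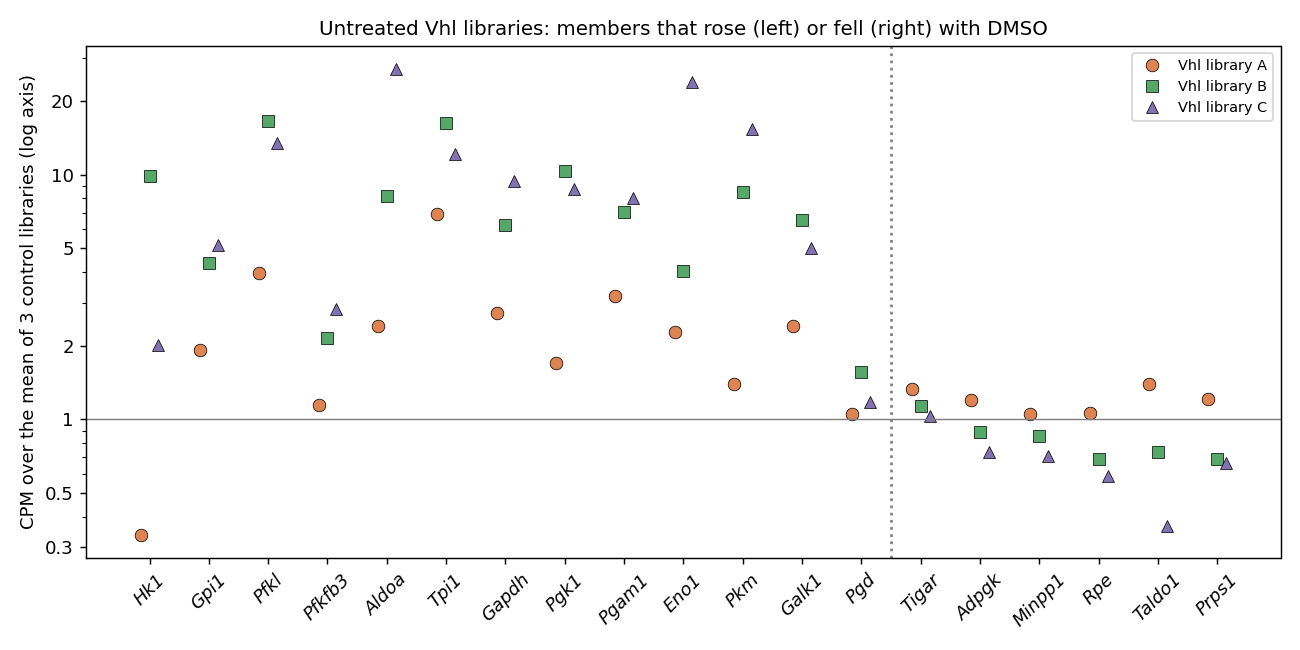
Ratio of each untreated Vhl library to the mean of the 3 untreated control libraries (y axis, log scale) for the members that rose (left of the dotted line) or fell (right) in DMSO; circles, squares and triangles are Vhl libraries A, B and C. Library A has the lowest ratio for all 13 genes on the left and the highest for all 6 on the right.

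The 2 hexokinase rows differed widely between untreated Vhl libraries. Hk1 was at 27.0, 8.07 and 16.3 CPM in controls and at 5.80, 169 and 34.4 CPM in Vhl libraries, so that Vhl A was below all controls. Hk2 was listed at 0 in all 3 controls and in Vhl A, and at 10.9 and 64.2 CPM in Vhl B and C. Gpi1 was at 438, 394 and 376 CPM in controls and at 774, 1751 and 2077 CPM in Vhl libraries. Gapdh was at 1100, 948 and 897 CPM and at 2667, 6107 and 9274 CPM. Pfkfb3 was at 18.6, 18.4 and 17.2 CPM and at 20.8, 38.8 and 51.0 CPM. In these 3 genes the groups did not overlap, although Pfkfb3 in Vhl A lay close to the controls. Pgd was at 170, 149.7 and 137 CPM in controls and at 159.7, 237 and 179 CPM in Vhl libraries, with overlap. Tkt was at 559.9, 471 and 465 CPM and 486, 674 and 792 CPM, also with overlap. Prps1 was at 31.8, 31.2 and 29.6 CPM in controls and at 37.4, 21.3 and 20.5 CPM in Vhl libraries, A above all controls and B and C below them. Taldo1 had the same order, at 123, 138 and 127 CPM in controls and at 179.7, 95.3 and 47.1 CPM in Vhl libraries. G6pdx was at 5.16, 0 and 3.85 CPM in controls and at 1.86, 0.890 and 1.08 CPM in Vhl libraries, with overlap. Eno2, the neuron enolase gene, was under 1.5 CPM in every library of both experiments.

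Genes of neighbouring steps, 38 chosen for their reactions, were counted beside the members. In the drug experiment 22 of them were tested. With Vhl edited 3 rose and 5 fell in DMSO, and 4 rose and 4 fell in AZD8330. AZD8330 raised 7 and lowered 5 in control cells and raised 7 and lowered 3 in Vhl cells, and Eno1b was among those whose 2 effects differed. Over all genes Vhl cells had 13.8% rises and 18.5% falls in DMSO and 16.0% and 14.0% in AZD8330, and the drug gave 29.1% and 31.7% in control and 25.8% and 25.6% in Vhl cells. No change of these neighbouring genes as a set is read from the counts. In untreated cells 0 of 20 were called by edgeR, with 4 at an unadjusted p under 0.05 and 1 called by DESeq2. Eno1b was higher in Vhl cells with AZD8330, at 981 ± 54.2 CPM in control and at 2559 ± 48.0 CPM in Vhl cells (log2 1.38 ± 0.04). Fbp2, a fructose bisphosphatase, which runs against phosphofructokinase, was listed with AZD8330 at higher values than with DMSO, going from 0.184 ± 0.153 to 4.87 ± 0.28 CPM in control cells and from 0.168 ± 0.098 to 4.69 ± 1.03 CPM in Vhl cells. The DMSO groups held only 8 and 7 counts of Fbp2, which passed the filter through the AZD8330 groups alone, so its call supports nothing. Prps2, which catalyses the same reaction as Prps1, fell with AZD8330 from 158 ± 9.67 to 71.9 ± 1.01 CPM in control cells and from 107 ± 4.56 to 52.2 ± 1.48 CPM in Vhl cells (log2 −1.14 ± 0.05 and −1.03 ± 0.05). Shpk, sedoheptulokinase, rose with AZD8330 in control cells from 3.91 ± 0.34 to 8.01 ± 0.53 CPM (log2 1.03 ± 0.16).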

How the data were processed

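RNA of 18 libraries in 6 groups of 3 was sequenced. Salmon 0.14.1 and the mouse build mm10 are named in the submitters' processing notes. The sources used here give no kit, strandedness, annotation or way of combining transcripts per gene. Both tables deposited by the authors are named as TPM, but the deposited values are estimated counts: their totals, 12391077 to 21160250, differ between libraries. Of the values above 0, 57.7% and 58.8% are whole within 0.001. Spreadsheet dates stand in 26 rows of each table. These rows were kept and are not named.

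Values were rounded and tested with edgeR 4.0.16 (quasi-likelihood test, TMM) in R 4.3.3, for genes whose mean reached 1 CPM, 13569 untreated and 13460 in the drug table. The 2 tables were fitted apart, and the 4 drug groups shared a fit. P-values were adjusted by Benjamini-Hochberg over all tested genes at 0.05. Alternatives were DESeq2 1.42.0, limma 3.58.1 on log2(CPM + 1), RLE and total-count scaling, no filter, a mean of 5 CPM, the replicate block, only the groups compared, each library left out, and near-identical rows summed, the last chosen after seeing the data. No 2 libraries held identical values. The scripts were tested on simulated counts.

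Members and lists were chosen with earlier results of these data known. Values per library are given, within each role, for the member with the smallest p and the member with the largest change of the Vhl effect in DMSO, for up to 6 members with the smallest p in the difference of AZD8330 effects, and for members called with AZD8330 at a log2 change of at least 0.5; further members were added after their values were seen. The 38 neighbouring genes are named where called at a log2 change of at least 1, except some that are not reported here. Gene positions are 1-based, from GENCODE M21 (GRCm38), which holds 98.4% of row names, and promoters are RefSeq's (GRCm38.p6).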

Additional observations from a re-analysis of the deposited data

Results flagged for a closer look

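For 10 members the change with AZD8330 differed between Vhl and control cells by the interaction term of edgeR's quasi-likelihood test. On the log2 scale, Vhl minus control, the difference was 0.5862 for Gpi1, 0.2444 for Pfkl, 0.5514 for Tpi1, 0.5509 for Gapdh, 0.659 for Pgam1, 0.8274 for Eno1, 0.6662 for Galk1, 0.328 for Pgd, 0.3247 for Tkt and -4.084 for Hk1. In the fits without 1 library Gpi1, Tpi1, Gapdh, Pgam1, Eno1, Galk1, Pgd and Tkt were called each time. Pfkl was not in 10 of 12 such fits, and Hk1 was not without control DMSO library B. With limma on log2(CPM + 1) the difference for Hk1 was -2.151 and not called. Hk1 was under 1 CPM on average in control cells with DMSO and passed the filter only through higher groups, so its difference supports nothing.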

How the results depend on the processing

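In untreated cells the count of called members, 0 with all libraries, was 9 with DESeq2, 10 with no filter, 1 with limma on log2(CPM + 1), 9 with both A libraries left out and 0 to 10 with 1 library left out, the 10 without Vhl A. The same count over all genes, 2, was 355 with DESeq2, 143 with no filter, 4 with limma, 606 with both A libraries left out and 0 to 439 with 1 library left out. The causes were not tested. In the drug experiment every total of called members, rises and falls together, was within 1.5 times its value under every alternative: 14 to 20 for Vhl in DMSO, 14 to 18 for Vhl in AZD8330, 19 to 22 for AZD8330 in control, 15 to 20 in Vhl cells and 9 to 11 for the difference. The falls alone moved more. For Vhl in DMSO the 6 falls were 4 with a mean of 5 CPM, 3 with only the groups compared, 2 with total-count scaling and 2 to 6 with 1 library left out. For Vhl in AZD8330 the 1 fall was 3 with DESeq2, RLE scaling or a mean of 5 CPM, 2 with limma and 0 to 3 with 1 library left out. The 1 negative difference was 0 with limma, 2 with a mean of 5 CPM and 0 to 2 with 1 library left out. Of 2840 values of single members under the alternatives, 2675 stayed called or stayed not called, 92 lost a call and 72 gained one. The remaining one reversed: the AZD8330 effect on Eno1 in Vhl cells was -0.128 with near-identical rows summed. A change of sign was counted as reversed only where the member was called in either fit. With a replicate block 18, 16, 21, 20 and 11 members were called in the drug comparisons and 0 in the untreated one. Same-lettered libraries did not deviate together (r of −0.081 to 0.02 over 3 untreated pairs and −0.044 to 0.053 over 18 drug pairs). This check cannot tell whether libraries of the same letter were prepared together. Pgk1 and G6pdx rest on few counts, 12 to 121 in each group of the drug experiment.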

Other observations

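Beside its libraries, the untreated table has the authors' deposited mean columns. They were used for no comparison. The column named Control equals the mean of control libraries A, B and C in 54279 of 54279 rows, within 0.001. The column named VHL equals the mean of Vhl libraries A, B and C in 27994 rows, and the mean of control B, control C and Vhl A in 54279 of 54279 rows.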
